A study of Homo sapiens with 9 samples.

Results

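The 10 genes described here were taken by name from the 37118 genes of a transcript table of A375 cells: the oxygen-regulated transcription factor subunit HIF1A, its prolyl hydroxylases EGLN1 and EGLN3, and 7 further targets of hypoxia-inducible factor (HIF), namely VEGFA, NDRG1, BHLHE40, P4HA1, ANKRD37, BNIP3 and BNIP3L. A375 is an established human melanoma cell line with an activating BRAF mutation, labelled wild type in all 9 libraries. Cells received metformin, a biguanide given for type 2 diabetes that acts on complex I of the mitochondrial respiratory chain, at 0, 20 or 40 mM, with 3 libraries per dose. RNA was sequenced from polyadenylated transcripts. The labels give neither the length of treatment nor the oxygen level, and nothing in them says that replicates came from separate cultures, so p-values speak of the spread among these 9 libraries, possibly a technical one. One cell line was used, so nothing here speaks for other melanoma cells.

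HIF is a pair of subunits, one of which, HIF1A or its relative EPAS1, is made all the time and destroyed while oxygen is present. The EGLN enzymes hydroxylate it on proline, the VHL ubiquitin ligase then marks it for the proteasome, and when oxygen falls the surviving protein pairs with ARNT and binds hypoxia response elements. Because that control acts on the protein, the HIF1A transcript does not measure HIF activity, which is usually read from target genes. EGLN3, BNIP3 and P4HA1 are commonly used as HIF targets, whereas VEGFA is also driven by ATF4, the factor of the integrated stress response, and NDRG1 by several other stresses.

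The core of a hypoxia response element is ACGTG or GCGTG. RefSeq promoter windows (GRCh38.p14, 250 bases before to 50 after a start site) were matched for 7 of the 10 genes, namely HIF1A, with 2 windows, BHLHE40, EGLN1, EGLN3, P4HA1, BNIP3 and ANKRD37. The windows shown were picked by direction of change, 3 from genes that rose with metformin (BHLHE40, EGLN1 and P4HA1) and 1 from a gene that fell (BNIP3). Bases are in lower case and every match to a core is in capitals, with CACGT and CACGC marking a match on the other strand; CACGTG matches on both strands. They lie at chr3:4979187-4979486 (plus strand), chr1:231422238-231422537 (minus), chr10:73096817-73097116 (minus) and chr10:131981874-131982173 (minus).
BHLHE40: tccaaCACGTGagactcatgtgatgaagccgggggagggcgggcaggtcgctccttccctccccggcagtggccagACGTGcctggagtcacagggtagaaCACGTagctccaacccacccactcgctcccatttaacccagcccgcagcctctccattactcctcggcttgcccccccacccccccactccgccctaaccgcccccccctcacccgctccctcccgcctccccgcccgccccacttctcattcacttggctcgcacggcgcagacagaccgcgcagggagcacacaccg
EGLN1: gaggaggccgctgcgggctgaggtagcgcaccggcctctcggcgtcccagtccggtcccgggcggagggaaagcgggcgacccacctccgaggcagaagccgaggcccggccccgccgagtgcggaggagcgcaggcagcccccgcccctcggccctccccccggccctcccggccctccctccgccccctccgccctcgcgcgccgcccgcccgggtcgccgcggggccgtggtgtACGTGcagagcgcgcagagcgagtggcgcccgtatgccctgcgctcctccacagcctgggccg
P4HA1: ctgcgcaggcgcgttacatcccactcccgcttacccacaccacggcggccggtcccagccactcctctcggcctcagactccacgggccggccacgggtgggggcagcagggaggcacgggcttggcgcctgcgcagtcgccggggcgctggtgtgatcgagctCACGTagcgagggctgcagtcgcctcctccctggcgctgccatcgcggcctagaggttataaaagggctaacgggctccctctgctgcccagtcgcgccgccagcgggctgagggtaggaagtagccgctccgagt
BNIP3: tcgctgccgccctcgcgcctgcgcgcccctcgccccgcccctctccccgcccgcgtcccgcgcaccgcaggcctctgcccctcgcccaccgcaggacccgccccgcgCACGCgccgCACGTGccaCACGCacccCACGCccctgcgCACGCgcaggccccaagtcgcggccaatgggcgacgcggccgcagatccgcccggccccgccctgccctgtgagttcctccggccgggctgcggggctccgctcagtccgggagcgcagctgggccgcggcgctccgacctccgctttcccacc
The BHLHE40 window had 4 core matches, EGLN1 and P4HA1 1 each, and BNIP3 6, with CACGTG counted once on each strand. Whether the number of matches goes with the direction of change was not tested. ANKRD37 had 3 and HIF1A 1 in one of its windows, while the EGLN3 window had none. A core was thus found for 6 of 7 genes, in 6 of their 8 windows, against 48.4% of all 35116 promoter windows of this length (21.4% with ACGTG, 36.5% with GCGTG, both strands). The 8 windows held 31.7% to 80.7% G or C, and the share over all windows was not matched for that. The ATF4 letters TGATGNAA, present in 3.62% of all windows, were found in none of these 7 genes. Such matches are letters and not shown to be bound, and the lack of a match concerns these windows alone.

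Library totals ran from 65738242 to 75629413 counts. Of the 12 melanocyte and melanoma markers, 7 reached 1 FPKM (fragments scaled to gene length and library depth), SOX10 at 85.5 to 104 FPKM on average per dose among them, while the pigment genes TYR, MLANA, PMEL, DCT and TYRP1 did not. The leukocyte marker PTPRC was at 0 to 4 counts, although CD68, a lysosomal protein on the leukocyte list, rose (log2 fold change 2.12 at 40 mM). Summed levels of the 7 leukocyte markers were 7.29 to 7.73, 14.4 to 17.2 and 20.0 to 26.3 FPKM at 0, 20 and 40 mM, and those of the melanoma markers were 637 to 697, 536 to 551 and 414 to 480 FPKM. VIM made up most of the melanoma sum and its fall, at 471, 347 and 264 FPKM on average. Of the 7 melanoma markers tested, VIM, MCAM and S100B fell at 40 mM against 0 mM and 4 were not called. Fibroblast markers summed to 4.68 to 5.22, 5.27 to 6.36 and 8.34 to 9.16 FPKM, epithelial markers to 23.8 to 28.0, 27.7 to 28.8 and 32.6 to 34.2 FPKM, and endothelial markers to 3.05 to 3.58, 1.55 to 2.15 and 1.73 to 2.12 FPKM. KDR made up most of the endothelial sum and its fall, at 3.03, 1.54 and 1.09 FPKM on average. In a fit without a filter, CDH5 (1.99 ± 0.23, edgeR adjusted p = 0.00016) and VWF (0.96 ± 0.25, adjusted p = 0.022), both under 1 FPKM, rose at 40 mM. PECAM1 (0.81 ± 0.30, adjusted p = 0.087) and TEK (0.38 ± 0.60, adjusted p = 0.75) were not called there. On other marker lists TYRP1 (2.36 ± 0.52), CDH1 (2.99 ± 0.76), THY1 (1.95 ± 0.55) and PDGFRA (0.59 ± 0.18), also under 1 FPKM, rose in that fit, and no marker under the filter was called lower. The part of these markers in the results was not tested. The third library of 40 mM differed most from its group, with 4.36% mitochondrial counts against 3.01% and 3.27%. Member calls that change without it are named, and list counts without it are given beside each list.

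Of the 10 genes, 9 had a mean of at least 1 FPKM over all libraries and were tested, and EGLN3 did not. At 20 mM against 0 mM, 6 of the 9 rose (HIF1A, EGLN1, VEGFA, NDRG1, BHLHE40 and P4HA1) and none fell by edgeR's quasi-likelihood test at an adjusted p under 0.05 (Benjamini-Hochberg over all 12394 genes tested). BNIP3 lay nearest to a fall among the 3 not called, with an unadjusted p of 0.037. Among all tested genes 31.6% were called, 16.3% as higher and 15.2% as lower. At 40 mM against 0 mM the same 6 genes rose and BNIP3 fell, with 56.2% of all genes called, 28.8% higher and 27.4% lower. Between 40 mM and 20 mM, NDRG1, BHLHE40 and EGLN1 rose and BNIP3 fell, against 29.3% of all genes called, 14.3% higher and 15.1% lower. In bulk RNA, a change in the share of cells in some state and a change in RNA per cell cannot be told apart. The median log2 fold change of the 9 genes was 0.17, 0.35 and 0.10 in the 3 comparisons, and that of all genes was 0.00 in each. On scaled counts, all libraries of 20 mM lay above all of 0 mM for 6 genes and below for 1, against 25.3% of all genes above and 25.3% below (50.6% without overlap). At 40 mM it was again 6 above 0 mM and 1 below, against 31.2% and 30.1% of all genes (61.2% without overlap). Between 40 and 20 mM it was 5 above and 1 below, against 21.6% and 22.0% (43.7% without overlap). Leaving out replicate 2 of 20 mM or replicate 1 of 40 mM reduced the 4 calls between the doses to 2, and without replicate 3 of 40 mM ANKRD37 joined the calls at 40 mM. The comparisons of both doses share the 0 mM libraries, so their calls are not independent.

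**Figure D1:**
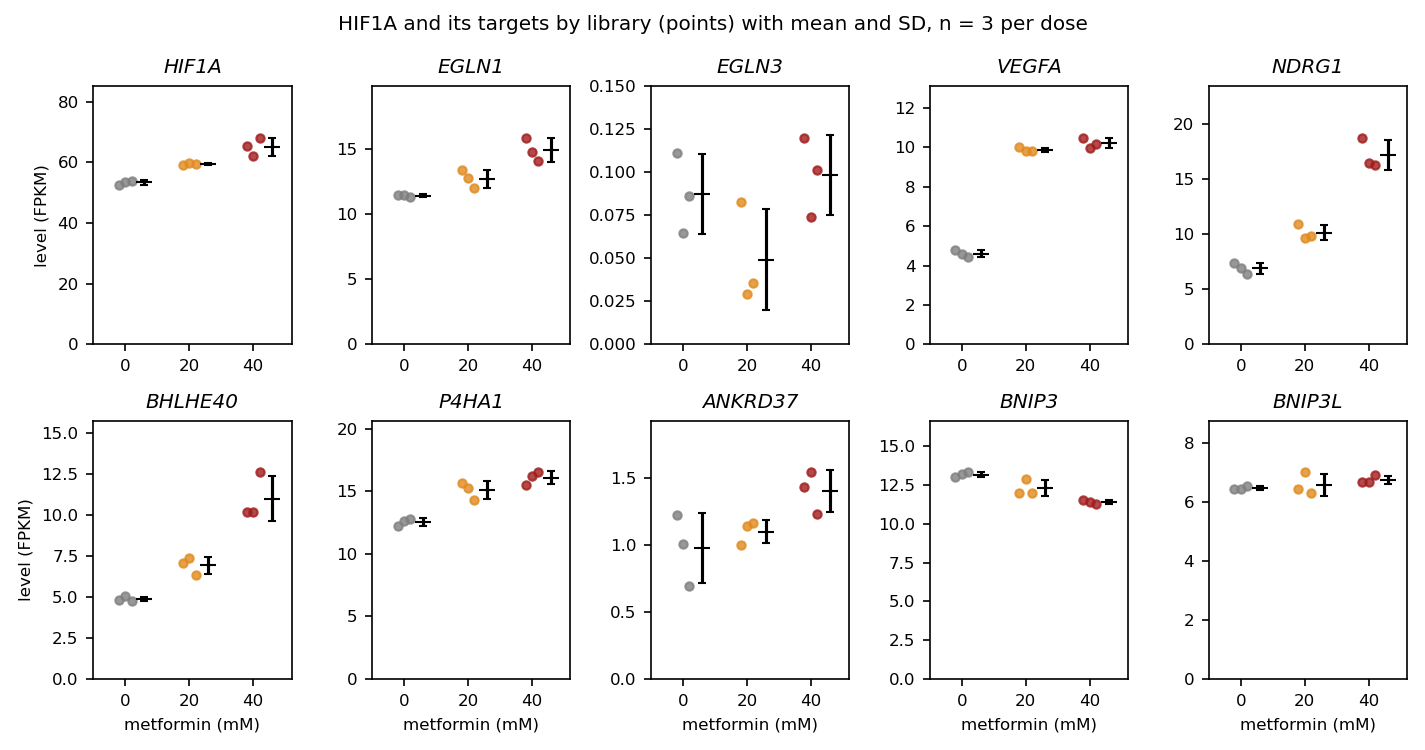
Level in FPKM (vertical axes, from 0) of the 10 genes in each library against metformin dose in mM, with the mean and SD of 3 libraries beside the points. VEGFA sits at 4.41 to 4.77 FPKM at 0 mM and at 9.82 to 10.5 FPKM at both doses, NDRG1 and BHLHE40 climb at each dose, and BNIP3L stays between 6.30 and 6.99 FPKM.

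HIF1A (ENSG00000100644, chromosome 14, 61695513 to 61748258, plus strand) was the most abundant of the 10 in every library. Its level was 52.5, 53.6 and 53.9 FPKM at 0 mM, 59.0, 59.6 and 59.3 FPKM at 20 mM, and 65.2, 62.1 and 68.1 FPKM at 40 mM. Libraries of the 3 doses did not overlap, yet the steps were small. It rose by 0.15 ± 0.04 at 20 mM on the log2 scale (SE, n = 3 per group, edgeR adjusted p = 0.018) and by 0.25 ± 0.04 at 40 mM (adjusted p = 0.00036), a fold change of 1.19. The step between 40 and 20 mM, 0.10 ± 0.04, did not pass the test (adjusted p = 0.079). The rise at 20 mM was not called without replicate 1 or 2 of 0 mM or replicate 2 or 3 of 20 mM (edgeR adjusted p between 0.053 and 0.063), at an unaltered log2 fold change of 0.15.

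EGLN1 and EGLN3 hydroxylate HIF1A and are themselves induced by HIF. EGLN1 (ENSG00000135766, chromosome 1, 231363751 to 231422287, minus strand) was at 11.5, 11.5 and 11.3 FPKM at 0 mM, 13.4, 12.8 and 12.0 FPKM at 20 mM, and 15.9, 14.8 and 14.1 FPKM at 40 mM, with no overlap between doses. Its rise was 0.15 ± 0.05 at 20 mM (edgeR adjusted p = 0.047), but the call was lost without any one of the 0 mM libraries, replicates 1 or 2 of 20 mM or replicate 2 of 40 mM (adjusted p up to 0.17). At 40 mM it was 0.35 ± 0.05 (adjusted p = 0.00022). Between the doses it was 0.20 ± 0.05 (adjusted p = 0.018), a call lost without replicate 2 or 3 of 20 mM or replicate 1 of 40 mM. EGLN3 (ENSG00000129521, chromosome 14, 33924227 to 34222953, minus strand) was close to silent. Its libraries held 70, 40 and 53 counts at 0 mM, then 51, 18 and 23 counts at 20 mM, then 76, 47 and 56 counts at 40 mM, or 0.029 to 0.12 FPKM. Counts of all 3 doses overlapped, and in a fit without a filter on low values its log2 fold changes were -0.81 ± 0.41 at 20 mM (adjusted p = 0.33) and 0.13 ± 0.40 at 40 mM (adjusted p = 0.91). At these counts a change of such a size was not detectable for EGLN3.

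VEGFA, the angiogenic growth factor (ENSG00000112715, chromosome 6, 43770184 to 43786487, plus strand), showed a step and then a plateau. Levels were 4.77, 4.60 and 4.41 FPKM at 0 mM, 10.04, 9.82 and 9.83 FPKM at 20 mM, and 10.5, 9.96 and 10.2 FPKM at 40 mM. Both treated groups lay above every 0 mM library and overlapped each other. The log2 fold change was 1.10 ± 0.04 at 20 mM (edgeR adjusted p = 6e-08) and 1.12 ± 0.04 at 40 mM (adjusted p = 2.7e-08). Between 40 and 20 mM it was 0.01 ± 0.04 (adjusted p = 0.85), so that 98.8% of the log2 change at 40 mM was present at 20 mM.

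NDRG1, a cytoplasmic protein induced by hypoxia and other stresses (ENSG00000104419, chromosome 8, 133237175 to 133302022, minus strand), climbed at each dose. It was at 7.35, 6.96 and 6.40 FPKM at 0 mM, 10.9, 9.64 and 9.88 FPKM at 20 mM, and 18.8, 16.5 and 16.3 FPKM at 40 mM, again with no overlap. Its rise was 0.55 ± 0.07 at 20 mM (edgeR adjusted p = 0.00034) and 1.28 ± 0.07 at 40 mM (adjusted p = 3.3e-07), with 0.73 ± 0.07 between the doses (adjusted p = 0.00013). Thus 43.1% of its log2 change at 40 mM was present at 20 mM.

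BHLHE40, a repressor of the basic helix-loop-helix family that also acts in the circadian clock (ENSG00000134107, chromosome 3, 4979437 to 4985323, plus strand), also climbed at each dose. Its levels were 4.80, 5.05 and 4.79 FPKM at 0 mM, 7.06, 7.39 and 6.36 FPKM at 20 mM, and 10.2, 10.2 and 12.6 FPKM at 40 mM. No dose overlapped another, and the highest of the 40 mM values was replicate 3. The rise was 0.51 ± 0.09 at 20 mM (edgeR adjusted p = 0.0019) and 1.14 ± 0.09 at 40 mM (adjusted p = 2.3e-06), with 0.63 ± 0.09 between the doses (adjusted p = 0.00065). Without replicate 3 of 40 mM the log2 fold change at 40 mM was 1.03.

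P4HA1, a catalytic subunit of the prolyl hydroxylase that matures collagen (ENSG00000122884, chromosome 10, 73007217 to 73096974, minus strand), rose at both doses. It was at 12.2, 12.6 and 12.8 FPKM at 0 mM, 15.7, 15.3 and 14.3 FPKM at 20 mM, and 15.5, 16.2 and 16.5 FPKM at 40 mM, so that both treated groups cleared the 0 mM libraries and overlapped each other. The log2 fold change was 0.27 ± 0.05 at 20 mM (edgeR adjusted p = 0.0021), 0.32 ± 0.05 at 40 mM (adjusted p = 0.0002) and 0.06 ± 0.05 between the doses (adjusted p = 0.42).

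ANKRD37, an ankyrin repeat protein whose gene is a sensitive marker of hypoxia (ENSG00000186352, chromosome 4, 185396021 to 185400241, plus strand), was low. At 0 mM it had 235, 191 and 134 counts, at 20 mM 192, 210 and 218 counts, and at 40 mM 276, 297 and 208 counts, or 0.697 to 1.54 FPKM. Counts of all 3 doses overlapped, but after scaling to library size every 40 mM library lay above every 20 mM library. The log2 fold change was 0.17 ± 0.20 at 20 mM (edgeR adjusted p = 0.57) and 0.48 ± 0.20 at 40 mM (adjusted p = 0.061). With replicate 1 of 0 mM left out it passed the test at 40 mM (adjusted p = 0.018), as it did with replicate 3 of 40 mM left out (0.045), with scaling to library totals (0.041), by DESeq2 (0.043) and by limma at both pseudocounts (0.034 and 0.04). All alternatives together gave 0.018 to 0.19. The end of the gene overlaps UFSP2 on the opposite strand (chromosome 4, 185399537 to 185400241), which had 1402 to 1954 counts. The library kit kept strand, but the strand setting of the counting is unknown here, so the ANKRD37 level is uncertain.

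BNIP3 and BNIP3L are receptors that hand mitochondria to autophagy. BNIP3 (ENSG00000176171, chromosome 10, 131966455 to 131982013, minus strand) was the only one of the 9 tested genes to fall. Its level was 13.0, 13.2 and 13.3 FPKM at 0 mM, 12.0, 12.9 and 12.0 FPKM at 20 mM, and 11.5, 11.4 and 11.3 FPKM at 40 mM. Each dose lay wholly below the one before it. The log2 fold change was -0.10 ± 0.04 at 20 mM (edgeR adjusted p = 0.094), -0.24 ± 0.04 at 40 mM (adjusted p = 0.0006) and -0.14 ± 0.04 between the doses (adjusted p = 0.028). The call between the doses was lost when replicate 2 of 20 mM (adjusted p = 0.13), replicate 1 of 40 mM (0.056) or replicate 2 of 40 mM (0.066) was left out. It was also lost with scaling to library totals (0.081), by limma at both pseudocounts (0.079 and 0.08) and with only the 6 libraries compared (0.06). The table lists 26 processed pseudogenes named after BNIP3, whose summed counts were 3.17% to 5.48% of those of BNIP3, so some of its reads may have been assigned elsewhere.

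BNIP3L (ENSG00000104765, chromosome 8, 26383054 to 26413127, plus strand) was at 6.43, 6.44 and 6.54 FPKM at 0 mM, 6.42, 6.99 and 6.30 FPKM at 20 mM, and 6.66, 6.68 and 6.90 FPKM at 40 mM. Log2 fold changes were 0.02 ± 0.05 at 20 mM (edgeR adjusted p = 0.82) and 0.03 ± 0.05 at 40 mM (adjusted p = 0.7), with signs that turned in some alternatives. Overlapping genes other than UFSP2 had at most 26 counts in any library, far below the genes they overlap.

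**Figure D2:**
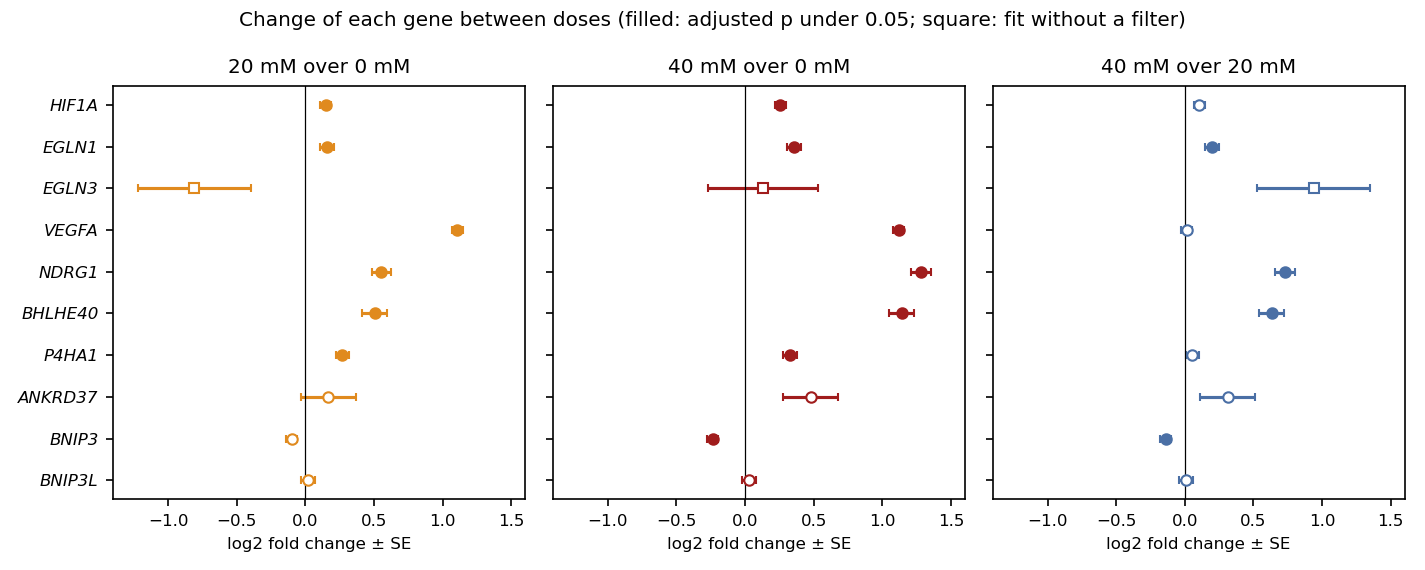
Log2 fold change with its SE (horizontal axes) of the 10 genes in the 3 comparisons of doses, filled where the adjusted p was under 0.05 and square for EGLN3, which came from a fit without a filter. VEGFA stands at 1.10 and 1.12 in the first and second panels and at 0.01 in the third, where NDRG1 (0.73) and BHLHE40 (0.63) lead the called genes.

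On the FPKM scale, which divides by gene length, the order at 0 mM was HIF1A (53.4 ± 0.762, mean ± SD, n = 3), BNIP3 (13.1 ± 0.176), P4HA1 (12.5 ± 0.293), EGLN1 (11.4 ± 0.0887), NDRG1 (6.90 ± 0.479), BNIP3L (6.47 ± 0.0609), BHLHE40 (4.88 ± 0.146), VEGFA (4.59 ± 0.179), ANKRD37 (0.975 ± 0.263) and EGLN3 (0.0872 ± 0.0233). NDRG1 and BNIP3L overlapped there, while the other neighbours in that order did not. At 40 mM, NDRG1 (17.2 ± 1.41) stood second, and its libraries overlapped those of P4HA1 (16.0 ± 0.490) in the third place. BHLHE40 (11.0 ± 1.36), BNIP3 (11.4 ± 0.0956) and VEGFA (10.2 ± 0.244) had moved close together, with BHLHE40 overlapping both. The gene lengths implied by the deposited counts and FPKM were 0.829 to 1.37 times the length of all GENCODE release 29 exons of a gene, and the implied length of VEGFA was 16162 bases. The order of levels depends on these lengths.

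VEGFA and NDRG1, shared with ATF4 or other stresses, were next set against EGLN3, BNIP3 and P4HA1 within each library, where no scaling between libraries is needed. The log2 ratio of VEGFA to BNIP3 counts averaged -0.08 ± 0.08 at 0 mM, 1.13 ± 0.07 at 20 mM and 1.28 ± 0.03 at 40 mM (SD, n = 3 each). For NDRG1 to BNIP3 the ratio averaged 0.24 ± 0.12 at 0 mM, 0.90 ± 0.14 at 20 mM and 1.76 ± 0.11 at 40 mM. The ratio of VEGFA to BNIP3 differed by 1.20 at 20 mM and 1.35 at 40 mM from 0 mM, and that of NDRG1 by 0.65 and 1.52.

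Set against P4HA1, which itself rose, the differences from 0 mM were smaller. VEGFA to P4HA1 averaged 0.78 ± 0.09 at 0 mM, 1.61 ± 0.06 at 20 mM and 1.57 ± 0.07 at 40 mM. NDRG1 to P4HA1 averaged 1.10 ± 0.13 at 0 mM, 1.38 ± 0.08 at 20 mM and 2.05 ± 0.16 at 40 mM. Ratios to EGLN3, which had as few as 18 counts, spread more. Over EGLN3, VEGFA averaged 6.70 ± 0.37, 8.73 ± 0.75 and 7.67 ± 0.32 and NDRG1 7.03 ± 0.36, 8.50 ± 0.67 and 8.16 ± 0.28 at 0, 20 and 40 mM. In each of these 6 ratios all libraries of either dose lay above all libraries of 0 mM. With 3 libraries against 3, the two-sided exact permutation test cannot go below 0.1, the p of all 12 of these differences, so none can pass 0.05. Both sets of genes were picked with earlier results of these data known, which makes the contrast a description.

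**Figure D3:**
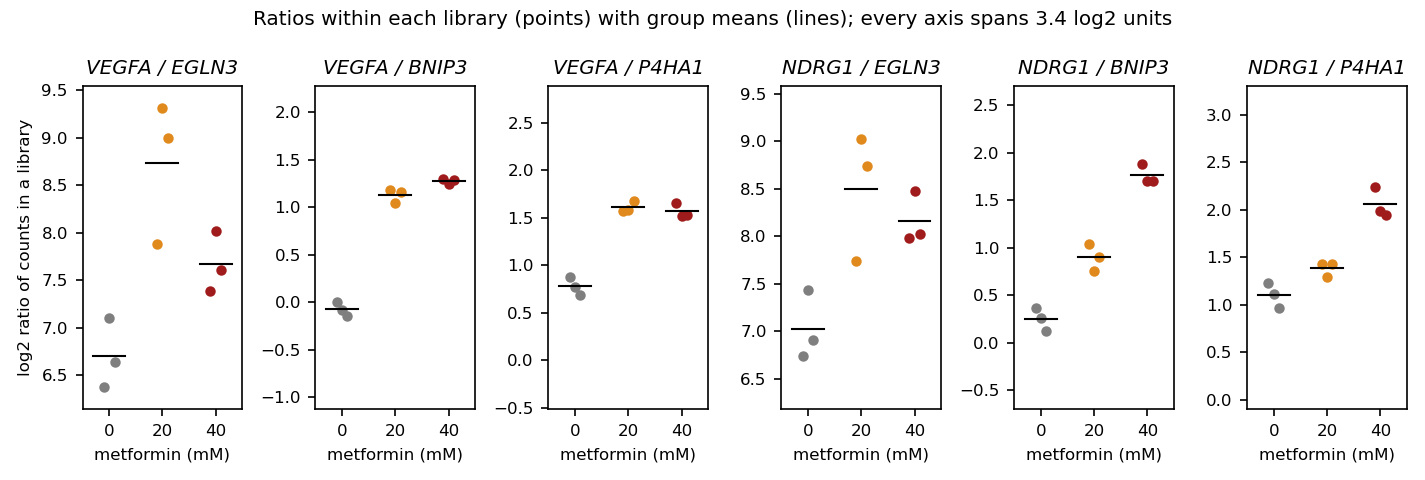
Log2 ratio of counts within each library (vertical axes, each spanning 3.4 log2 units) of VEGFA or NDRG1 over EGLN3, BNIP3 or P4HA1 against metformin dose in mM, with lines at the group means. Every treated library lies above the 0 mM libraries, VEGFA over BNIP3 at 1.04 to 1.30 in treated libraries against -0.15 to 0.00 at 0 mM.

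The wider HIF pathway was read from lists of genes chosen by role, with earlier results known. Of 34 other HIF targets outside glycolysis, 27 were tested. At 20 mM 13 rose and 2 fell, and at 40 mM 18 rose and 3 fell, with medians of 0.17 and 0.38. Over all tested genes 16.3% rose and 15.2% fell at 20 mM, and 28.8% rose and 27.4% fell at 40 mM. At 40 against 20 mM 12 rose and 3 fell, where 14.3% of all genes rose and 15.1% fell. Without replicate 3 of 40 mM, 14 rose at 20 mM and 2 fell at 40 against 20 mM, with the other counts as given. The lipoprotein receptor VLDLR (1.76 ± 0.09 at 20 mM and 1.48 ± 0.09 at 40 mM), the glycoprotein hormones STC2 (1.55 ± 0.13 and 1.75 ± 0.13) and STC1 (1.21 ± 0.13 and 2.09 ± 0.13) and the lipase inhibitor ANGPTL4 (0.62 at 20 mM and 1.54 ± 0.09 at 40 mM) were among the risers. VLDLR, STC2 and DDIT4 stand on the list of ATF4 targets as well. The growth factor binding protein IGFBP3 rose by 0.90 ± 0.07 at 20 mM. Adenylate kinase AK4 fell by 0.32 ± 0.06 at 20 mM and 0.57 ± 0.06 at 40 mM, and the lipid droplet protein HILPDA fell by 0.46 ± 0.11 at 40 mM. The histone demethylase KDM4B (-0.24 ± 0.07 at 20 mM) fell in a call that 7 alternatives lost and 11 kept. The cytokine MIF (-0.12 ± 0.05 at 40 mM, edgeR adjusted p = 0.048) fell in a call that 14 alternatives lost and only 5 kept. At 40 against 20 mM ANGPTL4 (0.92 ± 0.09), STC1 (0.89 ± 0.12), P4HA2 (0.39 ± 0.05) and the demethylase KDM4C (0.35 ± 0.04) rose, while DDIT4 (-0.38 ± 0.10), VLDLR (-0.28 ± 0.09) and AK4 (-0.25 ± 0.06) fell. The VLDLR call between the doses was lost in 8 alternatives and kept in 10. Against 0 mM, DDIT4 was called higher at both doses (0.77 ± 0.10 at 20 mM and 0.39 ± 0.10 at 40 mM).

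Several targets that are standard readouts of hypoxia were near silent. CA9, a carbonic anhydrase of the cell surface, had 24 to 38 counts at 0 mM, 20 to 26 at 20 mM and 33 to 61 at 40 mM, and was not called in a fit without a filter (adjusted p = 0.52 at 20 mM and 0.4 at 40 mM). LOX, CA12, CXCR4, PPP1R3C and RORA were likewise under 1 FPKM on average. CA9 and EGLN3 thus shared low counts that leave moderate changes undetectable.

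Of the glycolytic HIF targets more were called lower than higher. Of 20 tested of 21, 2 rose and 7 fell at 20 mM, and 2 rose and 11 fell at 40 mM, with medians of -0.08 and -0.17, against 16.3% higher and 15.2% lower of all genes at 20 mM and 28.8% and 27.4% at 40 mM. Among the fallers were phosphoglucomutase PGM1 (-0.44 ± 0.05 at 20 mM and -0.62 ± 0.05 at 40 mM), GAPDH (-0.34 ± 0.04 and -0.53 ± 0.04), ENO1 (-0.26 and -0.47 ± 0.05) and lactate dehydrogenase LDHA (-0.28 ± 0.05 and -0.35). The glucose transporters SLC2A3 (0.27 ± 0.06 at 20 mM and 0.44 ± 0.06 at 40 mM) and SLC2A1 (0.34 ± 0.07 at 40 mM) rose. The regulatory enzyme PFKFB3 fell at 20 mM (-0.36 ± 0.07), TPI1 at 40 mM (-0.24 ± 0.03), and PFKFB4 rose by 0.13 ± 0.04 at 20 mM. The step between the doses, in which 14.3% of all genes rose and 15.1% fell, had 3 risers (SLC2A1 by 0.26 ± 0.07, SLC2A3 by 0.17 ± 0.06 and PKM by 0.12 ± 0.03) and 6 fallers, among them ENO2 (-0.31 ± 0.07), PFKFB4 (-0.21 ± 0.04), ENO1 (-0.21 ± 0.05) and GAPDH (-0.18 ± 0.04). The SLC2A3 call between the doses was lost in 8 alternatives, the PKM call there in 5, and the PFKFB4 call at 20 mM in 5. Without replicate 3 of 40 mM, 2 rose and 10 fell at 20 mM, 3 rose and 10 fell at 40 mM, and 4 rose and 6 fell between the doses.

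**Figure D4:**
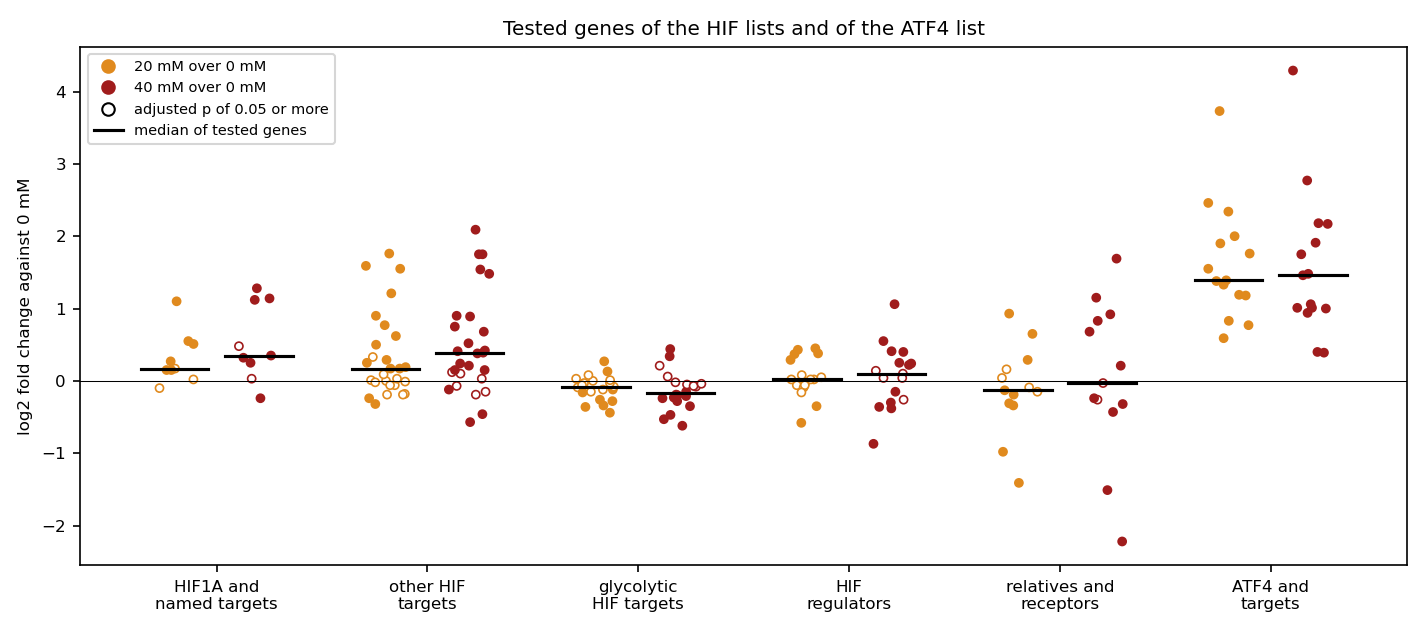
Log2 fold change against 0 mM (vertical axis) of every tested gene of 6 lists, at 20 mM (left of each pair) and 40 mM (right), filled where the adjusted p was under 0.05, with lines at the medians. The median of glycolytic HIF targets lies at -0.08 and -0.17, that of other HIF targets at 0.17 and 0.38, and that of ATF4 and its targets at 1.39 and 1.46.

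Regulators of HIF had calls in both directions, at shares that were in part near those of all genes. Of 17 tested of 20, 5 rose and 2 fell at 20 mM, and 7 rose and 5 fell at 40 mM, with medians of 0.02 and 0.10. All genes had 16.3% higher and 15.2% lower at 20 mM, 28.8% and 27.4% at 40 mM, and 29.3% called between the doses. Without replicate 3 of 40 mM, 3 regulators fell at 20 mM, 4 fell at 40 mM, and 2 rose between the doses. CITED2, which competes with HIF for the coactivators CREBBP and EP300, rose by 0.45 ± 0.06 at 20 mM and 1.06 ± 0.06 at 40 mM. VHL, which recognises hydroxylated HIF1A, rose by 0.43 ± 0.05 and 0.40 ± 0.05, and the ubiquitin ligase SIAH2, which targets EGLN enzymes, by 0.37 ± 0.06 and 0.41 ± 0.06. The HIF partner ARNT2 rose by 0.38 ± 0.07 and 0.55 ± 0.07, while ARNT was at -0.06 and 0.04 and was not called. The chaperone HSP90AB1, a stabiliser of HIF1A, fell by 0.58 ± 0.03 and 0.87 ± 0.03, and HSP90AA1 by 0.35 ± 0.04 and 0.38 ± 0.04. RACK1 (-0.30 ± 0.05) and RBX1 (-0.36 ± 0.12), both tied to HIF1A degradation, fell at 40 mM. Against 20 mM, 3 rose at 40 mM, CITED2 (0.61 ± 0.06), the asparaginyl hydroxylase HIF1AN (0.19 ± 0.04) and CREBBP (0.22 ± 0.07), and HSP90AB1 (-0.29 ± 0.03) and RACK1 (-0.24 ± 0.05) fell. EPAS1, the other main alpha subunit, lay under the filter at 0.276 ± 0.0295, 0.410 ± 0.0540 and 0.939 ± 0.129 FPKM at 0, 20 and 40 mM. Singled out after its values were seen, it had a log2 fold change of 1.71 ± 0.16 at 40 mM in a fit without a filter (edgeR adjusted p = 3.7e-05). HIF3A had 0 to 3 counts.

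Among relatives of the 10 genes and receptors of VEGF, 3 of 13 tested rose and 6 fell at 20 mM, and 6 rose and 5 fell at 40 mM, with medians of -0.13 and -0.03. Of all genes, 31.6% were called at 20 mM, 56.2% at 40 mM and 29.3% between the doses. Without replicate 3 of 40 mM, 5 rose at 40 mM and the other counts were as given. The VEGF receptors FLT1 (-1.41 ± 0.09 at 20 mM and -2.22 ± 0.09 at 40 mM) and KDR (-0.98 ± 0.12 and -1.51 ± 0.13) fell while their ligand VEGFA rose, and the co-receptor NRP1 rose (0.65 ± 0.06 and 0.83 ± 0.06). FLT1 was at 2.16 ± 0.231 FPKM at 0 mM, 0.814 ± 0.00474 FPKM at 20 mM and 0.475 ± 0.0364 FPKM at 40 mM. KDR also stands on the endothelial marker list, where no other gene reached 1 FPKM. Of the other ligands, VEGFB fell by 0.34 ± 0.08 and 0.43 ± 0.08, and VEGFC rose by 1.15 ± 0.11 at 40 mM. BHLHE41, the close relative of BHLHE40, rose by 0.93 ± 0.13 and 1.69 ± 0.13. P4HA2, the sister of P4HA1, rose by 0.29 ± 0.05 and 0.68 ± 0.05, while their partner subunit P4HB fell by 0.32 ± 0.03 at 40 mM. NDRG3 fell by 0.19 ± 0.05 at 20 mM. Against 20 mM, 6 rose at 40 mM, led by NDRG2 (1.07 ± 0.10), VEGFC (0.99 ± 0.11), BHLHE41 (0.76 ± 0.13) and P4HA2, and 3 fell, FLT1 (-0.81 ± 0.09), KDR (-0.53 ± 0.13) and P4HB (-0.19 ± 0.03).

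ATF4 and its targets gave the comparison for the shared genes. All 15 rose at 20 mM and at 40 mM, with medians of 1.39 and 1.46, and between 40 and 20 mM 3 rose and 8 fell (4 and 7 without replicate 3 of 40 mM). Of all genes 16.3% rose at 20 mM, 28.8% rose at 40 mM, and 29.3% were called between the doses. The glutathione-degrading enzyme CHAC1 (2.46 ± 0.08 at 20 mM), the pseudokinase TRIB3 (1.90 ± 0.07 at 20 mM and 1.91 ± 0.07 at 40 mM) and the stress protein NUPR1 (4.29 ± 0.14 at 40 mM) are examples. Between 40 and 20 mM, ATF3 (0.84 ± 0.19) and NUPR1 (0.56 ± 0.12) rose, and the amino acid enzymes ASNS (-0.54 ± 0.07) and PSAT1 (-0.45 ± 0.07) fell. Of the 15, 4 were not called between the doses, namely TRIB3 (0.01 ± 0.06), PHGDH (-0.12 ± 0.04), STC2 (0.20 ± 0.13) and CEBPB (0.17 ± 0.06). Of the 9 tested genes of the set, 5 were not called there either, VEGFA (0.01 ± 0.04) and P4HA1 (0.06 ± 0.05) among them.

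Genes with the most similar course over the 9 libraries were sought among 6983 genes with a mean of at least 5 FPKM, by the root mean square difference of log2 values centred on 0 mM. Nearest to VEGFA were PSPH (0.0856), PHGDH (0.0868) and CEBPG (0.0895), of which PSPH and PHGDH are enzymes of serine synthesis. Nearest to NDRG1 were GPNMB (0.0929), ABL2 (0.107) and BCL9L (0.127). BHLHE40 ran closest to CITED2 (0.0773), CLEC2B (0.105) and TBX3 (0.112). For HIF1A the nearest were CCSER2 (0.0266), SLC50A1 (0.0288) and SH3BP5L (0.0303), for EGLN1 NPTN (0.0272), ZFAND2A (0.0314) and RETREG2 (0.0329), and for P4HA1 CETN2 (0.0355), SP1 (0.0391) and EFL1 (0.0465). Small differences are easier to reach for genes that change little, so these values do not compare between the 6 genes.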

How the data were processed

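Transcripts of A375 cells were measured in 9 libraries, 3 each at 0, 20 and 40 mM metformin. The deposited table holds read counts and, per the file headers, also FPKM of each gene. Per the submitters' processing notes StringTie 2.1.6 was used, in a role not stated. Not given in the sources used here were aligner, annotation, genome build, filters and counting strand. All positions are those of the table. Library totals of 65738242 to 75629413 counts leave the spread between libraries, given as SD or SE, as the main limit, except for genes with few counts.

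The 12394 genes averaging 1 FPKM or more were tested on their counts with edgeR 4.0.16 (quasi-likelihood, TMM, all 9 libraries in 1 fit; R 4.3.3) and called at a Benjamini-Hochberg adjusted p under 0.05. Each SE was taken as the log2 fold change divided by the square root of F. The procedure was tested on simulated data. Alternatives used DESeq2 1.42.0, limma 3.58.1 on log2(FPKM + 1) and log2(FPKM + 0.1), other filters and scalings, only the 6 libraries compared, a replicate block, and each library left out in turn. Ratios were compared by exact permutation in SciPy 1.17.1.

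The 10 genes and all lists were chosen with earlier results of these data known. Of each other list, up to 4 called genes per direction and comparison with the smallest p are named (2 for ATF4 targets), some with values at the other dose beside them. ANGPTL4 at 20 mM, ENO1 at 20 mM, LDHA at 40 mM, ARNT, CA9, EPAS1 and the markers were singled out after their values were seen. So were the 4 genes of the ATF4 list not called between the doses. Lists of epithelial (8 genes), fibroblast (8) and endothelial (6) markers had 3, 2 and 1 genes at 1 FPKM or more. Some results for single genes are not reported here. No library was a copy of another.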

Additional observations from a re-analysis of the deposited data

How the results depend on the processing

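The set's count of called genes stayed within 1.5 times of 6 (20 against 0 mM, 4 to 6 without single libraries) and 7 (40 against 0 mM, 7 to 8) in every alternative run. Between 40 and 20 mM, 4 were called, and 2 to 4 without single libraries, with 2 without replicate 2 of 20 mM or replicate 1 of 40 mM. With a filter at a mean FPKM of 5, which leaves 6983 genes to test, 2517, 4245 and 2367 of all genes were called at 20 against 0, 40 against 0 and 40 against 20 mM, where 3911, 6962 and 3637 were called of 12394. Single libraries left out gave 2731 to 4966, 6049 to 7135 and 2408 to 4065. Signs turned for genes near 0 that were not called: BNIP3L at 20 against 0 mM without replicate 2 of 20 mM (-0.03), ANKRD37 without replicate 3 of 0 mM (-0.02), and, at 40 against 20 mM, VEGFA with no filter (-0.0012) and without replicate 1 of 40 mM (-0.0043), and BNIP3L with no filter (-0.01), with upper quartile scaling (-0.0032), without replicate 1 or 3 of 20 mM (-0.01 and -0.02) and without replicate 3 of 40 mM (-0.01). With single libraries left out these 4 ran from -0.03 to 0.05, from -0.02 to 0.36, from -0.0043 to 0.03 and from -0.02 to 0.05. The cause was not tested. Of the calls between 40 and 20 mM, 48.7% were higher, and 61.0% with scaling to library totals. HIF1A at 40 against 20 mM was called with scaling to library totals (adjusted p 0.026), with limma (0.032 at both pseudocounts) and without replicate 2 of 40 mM (0.029), and EGLN1 there was lost with no filter (0.065). EGLN1 at 20 mM was also not called with limma (adjusted p 0.06 and 0.059), upper quartile scaling (0.057) or no filter (0.12). MIF and KDM4B, each just called, were lost in 14 and 7 alternatives. At 40 against 20 mM, VLDLR and SLC2A3 were each lost in 8 and PKM in 5, as was PFKFB4 at 20 mM. CREBBP, SLC2A1 and ENO1 at 40 against 20 mM were each lost in 4. RBX1 at 40 mM was lost in 3, and DDIT4 and GAPDH at 40 against 20 mM in 2 each. Ratios within a library kept their direction with FPKM in place of counts and without each library. Deviations of same-numbered libraries of different doses correlated at -0.101 to 0.186, and those of differently numbered libraries at -0.191 to 0.124. With 3 libraries per dose, these values cannot settle whether replicate numbers pair the libraries. With a replicate block 6, 7 and 4 of the set were called. Low counts limit EGLN3, CA9 and ANKRD37.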
